A study of Mus musculus with 8 samples.

Results

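Neurotrophins and the GDNF family are secreted factors that keep neurons alive and steer their growth. Brain-derived neurotrophic factor (Bdnf) signals through the receptor tyrosine kinase TrkB (Ntrk2), neurotrophin-3 signals through TrkC (Ntrk3), and the low-affinity receptor p75 (Ngfr) binds every neurotrophin. Glial cell line-derived neurotrophic factor (Gdnf), known for its support of midbrain dopaminergic neurons, binds the membrane-anchored co-receptor GFRα1 (Gfra1), and the pair engages the kinase Ret. These 7 named genes, of 21951 protein-coding genes of GENCODE release M21, were examined for open chromatin. No expression was measured in the libraries used here, so the values describe the chromatin of the loci and not the level of any ligand or receptor.

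ATAC-seq, in which a transposase tags accessible DNA, was performed on SN4741, an immortalized mouse neural precursor line labelled as wild type that carries a temperature-sensitive T antigen driven by a tyrosine hydroxylase promoter. The 4 undifferentiated libraries came from cells at the permissive 37 °C in 10% serum, and the 4 differentiated libraries from cells held for 48 h at the non-permissive 39 °C in 0.5% serum. Temperature and serum changed together and cannot be told apart. Nothing in the labels says that libraries of 1 temperature came from separate cultures, so p-values measure the spread between libraries, which may be technical.

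Each locus was the gene body plus 20 kb on either side on mm10. Peaks of the 8 libraries that overlapped by at least 1 bp were merged into regions, and a region seen in at least 2 libraries belonged to the consensus set. The 7 loci held 65 merged regions, of which 56 were among the 84777 consensus regions and 30 were called in all 8 libraries. Of the 65 regions, 9 lay within 1 kb of an annotated transcription start site (TSS) of the gene itself, 1 at the promoter of the neighbouring Csgalnact2, and 55 farther away (distal). By calls, 9 of the 65 were seen in a single library, and 7 of those 9 in 1 of the 2 libraries with over 100 M fragments.

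The libraries differed in ways that touch every count. The caller kept 49.8 to 169 M fragments per library at 37 °C and 52.7 to 71.2 M at 39 °C, and it listed 74026 to 92013 peaks at 37 °C but 54845 to 68410 at 39 °C. Replicates 1 and 4 at 37 °C were the deep libraries, and replicate 4 at 39 °C had the shortest list. The labelled cell type was looked at on start sites, where 5 of 8 neural precursor markers had a promoter peak in all 8 libraries (Nes, Sox2, Pax6, Msi1 and Vim), while Fabp7 had none. This share is near the 59.9% of all coding genes with such a peak and does not set the cells apart. All 5 fibroblast and mesenchymal markers, 3 of 3 neuronal markers and 3 of 5 dopaminergic markers also had a promoter peak in all 8, against 0 of 3 Schwann and neural crest markers. The part of other cell types in the results was not tested.

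The first comparison asked whether the start sites of these genes were open at each temperature. Bdnf, Gdnf, Ngfr, Ret and Gfra1 had a promoter peak in all 8 libraries, as did 59.9% of coding genes. Ntrk2 had no promoter peak in any library at any of its 9 annotated TSSs, and Ntrk3 had one in all 4 undifferentiated but only 1 of 4 differentiated libraries (exact Fisher test, two-sided p = 0.143). So a promoter peak was listed throughout for both ligands, for the GDNF receptor pair and for p75, but not for either Trk kinase. Across all coding genes, 1.46% had a promoter peak in 4 undifferentiated and 0 differentiated libraries, and 0.0137% the reverse. With all annotated TSSs counted, none of the 7 genes was among either. The 1 differentiated library with an Ntrk3 call had it at chr7:78623342, a TSS of a transcript not annotated as coding. The Ntrk3 TSSs of coding transcripts had a peak in 4 undifferentiated and 0 differentiated libraries, or in none.

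The number of peaks per locus and the share of the window they covered differed among the 7 genes. The windows ran from 58.9 kb (Ngfr) to 367 kb (Ntrk2) and 602 kb (Ntrk3), and the 2 measures gave different orders. By covered share Ntrk3 was at or above 24.3% and Gfra1 49.4% of coding genes, and by peak number 79.5% and 95.7%. The part of window length in these values was not tested. Gdnf had the most open window, with 34.1% ± 5.92 covered at 37 °C against 24.97% ± 1.72 at 39 °C (SD, n = 4 per group), and its mean share over all 8 libraries was at or above that of 92.0% of coding genes. At the other end, peaks covered 0.257% ± 0.120 of the Ntrk2 window at 37 °C and 0.3005% ± 0.0522 at 39 °C (SD, n = 4 per group), with an overall mean at or above that of 19.2% of coding genes. Between them the order of means at 37 °C was Bdnf (14.3%), Ngfr (11.5%), Ret (8.01%), Gfra1 (6.14%) and Ntrk3 (1.36%), in which Bdnf and Ngfr, Ngfr and Ret, and Ret and Gfra1 overlapped over single libraries. At 39 °C Ngfr stood lower in the order, which was Bdnf (11.6%), Ret (6.97%), Gfra1 (5.37%), Ngfr (4.15%) and Ntrk3 (0.913%). There Ret and Gfra1, and Gfra1 and Ngfr, overlapped. Gdnf, Ntrk3 and Ntrk2 overlapped no neighbour at either temperature.

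Ngfr, Gdnf and Ret had fewer peaks in every library at 39 °C than in any at 37 °C. At Ngfr the 4 libraries at 37 °C held 9, 4, 6 and 7 peaks, and those at 39 °C held 2, 1, 2 and 1. At Gdnf they held 9, 7, 9 and 12 peaks against 6, 5, 6 and 5. At Ret they held 7, 6, 6 and 7 peaks against 5, 4, 5 and 4. For each of the 3 loci the exact permutation test over 70 assignments gave p = 0.0286 (two-sided), the smallest that 4 against 4 can give, and an adjusted p of 0.143 over all genes. The groups of 19.7% of all coding genes were separated in this direction and those of 0.251% in the other, so 3 of 7 stands beside a background in which nearly 1 gene in 5 has the same pattern. Without replicate 3 at 37 °C, the least deep library, Ntrk3 and Bdnf were also separated, which made 5 of 7. Fewer libraries separate more easily, and the share of all genes at this setting is not given, so 5 of 7 has no background.

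The remaining 4 loci overlapped between temperatures in peak number. Gfra1 held the most peaks of the 7, with 13, 14, 10 and 16 at 37 °C and 13, 12, 13 and 12 at 39 °C, and the difference of its means (39 °C minus 37 °C) was −0.75 peaks. Bdnf held 7, 8, 6 and 8 against 6, 6, 6 and 5. Ntrk3 held 9, 8, 7 and 9 against 7, 6, 6 and 6, with its lowest library at 37 °C equal to its highest at 39 °C. Ntrk2 held 1 or 2 peaks in each library. No coding gene passed an adjusted p of 0.05 in this exact test, while 4375 had an unadjusted p under 0.05. No p of 4 against 4 can fall below 0.0286, so the adjusted p at that floor is set by how many features reach it. It does not weigh the difference at any single gene or region, here or in the tests below.

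By covered length, Ngfr and Gdnf were the 2 loci of 7 with groups that did not overlap. Peaks covered 9856, 4808, 5206 and 7342 bp of the Ngfr window at 37 °C and 3010, 2685, 2410 and 1681 bp at 39 °C, a ratio of means of 0.360. At Gdnf they covered 27497, 19345, 19704 and 24591 bp against 17722, 15794, 17584 and 15552 bp, a ratio of 0.731. Over coding genes with a peak at 37 °C the median ratio was 0.742, so the Gdnf value lay near the middle of all genes and the Ngfr value below it. Covered length was lower without overlap at 32.7% of coding genes and higher at 0.182%, and the adjusted p of Ngfr and Gdnf was 0.0868. Without replicate 3 at 37 °C the count was 5 of 7, with Ntrk3, Bdnf and Gfra1 added. This count cannot be set beside the 32.7%, which is for all 8 libraries.

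The difference in peak number moved with list length. When every list was shortened to its 54845 best peaks, as many as the shortest list held, 0 of the 7 loci were lower without overlap in peak number (4.56% of all genes were), and the mean difference at Ngfr shrank from −5 to −0.75 peaks. The Gfra1 locus then held 1.5 more peaks at 39 °C, with no overlap, as did 2.73% of all genes. Covered length was then lower without overlap at Ngfr, Gdnf and Bdnf, as at 25.3% of all genes, and higher at Ntrk2 by 453.5 bp, a direction of 0.784% of genes. The mean difference in covered length was then −1743 bp at Ngfr, −3356 bp at Gdnf and −2401 bp at Bdnf. With whole lists it was −4356, −6121 and −2543 bp. In the 6 libraries under 100 M fragments, the peak numbers of Ngfr, Gdnf and Ret again did not overlap, and 22.3% of all genes were lower in this way.

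**Figure D1:**
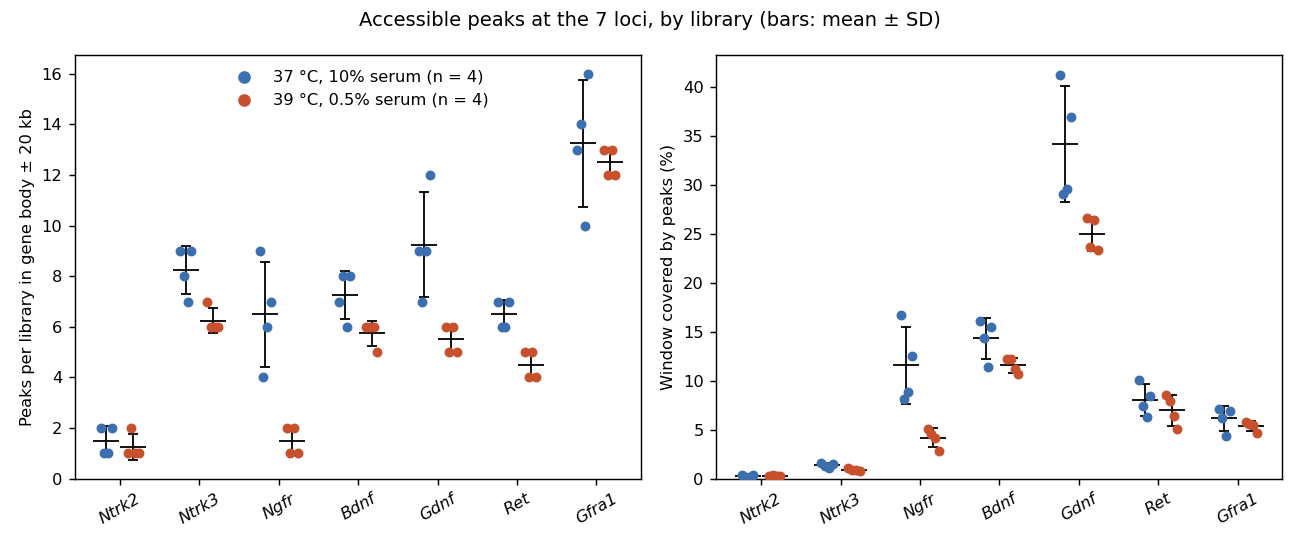
Peaks per library (left) and percent of the window covered by peaks (right) at the 7 loci, gene body plus 20 kb on each side. Each point is 1 library (blue 37 °C, orange 39 °C) and bars give mean ± SD of 4 libraries. Ngfr runs from 4 to 9 peaks at 37 °C and from 1 to 2 at 39 °C, whereas the Gfra1 groups overlap.

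The ligand Bdnf is transcribed from a series of alternative first exons, and 9 TSSs are annotated between chr2:109674700 and chr2:109709383 on the plus strand. A peak lay within 1 kb of 7 of them in all 8 libraries. The outermost TSS had one in 4 libraries at 37 °C and 3 at 39 °C, and the last TSS had none. The open starts formed a pair of broad regions, chr2:109675781-109679764 over 2 TSSs and chr2:109692107-109697673 over 5 TSSs.

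Both broad Bdnf promoter regions ranked lower at 39 °C. Peaks were ranked by −log10 q within their own list, and to set aside list length a second percentile was taken only among the 44861 regions called in all 8 libraries (the shared percentile). The shared percentile of the first promoter region was 84.8, 83.4, 82.5 and 83.5 at 37 °C and 73.3, 72.2, 71.2 and 68.9 at 39 °C, a difference of −12.2 points. That of the second was 83.7, 85.0, 82.9 and 82.2 against 80.0, 78.3, 79.2 and 77.7, a difference of −4.63. A distal region in the intron between them, at chr2:109680399-109681888, differed by −10.95 points, from 62.1 ± 0.867 to 51.1 ± 1.89 (SD, n = 4 per group). In each of these 3 regions all 4 libraries at 39 °C lay below all 4 at 37 °C (exact permutation p = 0.0286, adjusted p = 0.0745 over all shared regions), a pattern of 19.8% of all shared regions, while 18.5% lay higher.

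The second Bdnf promoter region was also narrower at 39 °C. Its width was 5539, 5497, 5248 and 5398 bp at 37 °C and 5148, 5201, 5069 and 5063 bp at 39 °C, so the groups were apart by a small margin on a region wider than or as wide as 96.4% of shared regions. A region at the 3′ end of the gene, chr2:109725318-109726605, measured 1236, 1240, 654 and 1288 bp against 595, 536, 482 and 394 bp. Of all shared regions, 24.1% were narrower at 39 °C without overlap and 0.74% were wider.

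The ligand Gdnf has 1 annotated TSS, at chr15:7810846 on the plus strand, and lay in the widest open domains of the 7 loci. Its promoter region chr15:7808935-7818280 was 9336, 8437, 8496 and 8941 bp wide at 37 °C and 8615, 8492, 8500 and 8431 bp at 39 °C, as wide as or wider than 98.9% of shared regions. Another domain of this kind covered the 3′ end of the gene and the sequence beyond it (chr15:7835040-7844302), with 7914 ± 1036 bp at 37 °C against 6219 ± 685 bp at 39 °C (SD, n = 4 per group). A further domain, centred 52.3 kb from the TSS (chr15:7856974-7865679), crossed the edge of the 20 kb window, and its summit lay beyond that edge.

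The highest percentile of any region touching the 7 windows was that of the outer Gdnf domain. Its percentile within the list was 99.8, 99.2, 98.8 and 99.8 at 37 °C and 98.3, 98.8, 98.5 and 97.8 at 39 °C. The promoter region had 95.9, 94.4, 92.1 and 95.3 against 94.5, 92.8, 91.9 and 90.4, and the domain at the gene end 91.8 to 97.2 over the 8 libraries. Shared percentiles of all 3 domains overlapped between temperatures, with differences of −0.581 at the promoter, 0.614 at the gene end and −1.32 at the outer domain. In the 6 libraries under 100 M fragments the outer domain was split, and the piece that reached into the window differed by −15.8 points within the lists, against −1.09 for the whole domain in all 8. Between the promoter and the gene end, 2 smaller regions were called in 3 libraries at 37 °C and none at 39 °C, and 1, at chr15:7825045-7826849, in 4 and none.

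The receptor gene Ntrk2 spans chr13:58806569-59133970 on the plus strand, and 1 region of its locus was called in all 8 libraries, at chr13:58970894-58971975 in an intron, 165 kb from the outermost TSS and 99.2 kb from the nearest one. It was wider at 39 °C in every library, with 748, 659, 479 and 716 bp at 37 °C and 1028, 1018, 1082 and 930 bp at 39 °C, a direction that 0.74% of shared regions took without overlap (exact permutation p = 0.0286, adjusted p = 0.115). Its shared percentile was 20.2, 23.0, 22.6 and 20.4 against 48.7, 51.3, 49.5 and 48.3, a difference of 27.8 points and the largest of the 30 regions called in all 8. Within the whole lists the percentile was 56.1, 52.4, 49.1 and 59.1 against 63.9, 65.3, 65.4 and 55.4, where replicate 4 at 39 °C overlapped the 37 °C range. Without that replicate the groups did not overlap, with a difference of 10.7 points. The other 2 regions of this locus were not called in all 8 libraries, so their width and percentile were not compared.

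The sequence of this region is shown because it carried the largest difference, and it was chosen after its values were seen. The window is 300 bp around the median summit, chr13:58971364-58971663 on the plus strand of mm10, with motif matches in capitals: from the left a p53 decamer, an AP-1 motif (TGANTCA) that starts 9 bp before the summit, and a SOX motif (ACAAAG, here on the minus strand).

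Ntrk2 intron, +165 kb: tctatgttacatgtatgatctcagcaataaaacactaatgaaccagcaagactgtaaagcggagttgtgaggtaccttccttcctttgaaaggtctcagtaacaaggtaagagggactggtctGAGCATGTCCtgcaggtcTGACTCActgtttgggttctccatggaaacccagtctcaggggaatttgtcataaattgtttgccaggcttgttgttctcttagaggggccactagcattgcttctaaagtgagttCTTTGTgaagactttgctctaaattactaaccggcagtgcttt

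Motifs were searched on both strands without mismatch in the same window of every consensus region. The AP-1 motif was in 32.7% of the 84777 windows, the SOX motif in 22.5% and the p53 decamer in 10.8%. Also searched, with no match in any window printed here, were CRE (TGACGTCA, in 0.769% of consensus windows), SP/KLF (GGGCGG, 17.9%), Forkhead (TGTTTAC, 4.17%), CTCF (3.9%) and NRSF/REST (0.13%). No matches overlapped in the printed windows. A match describes the letters and does not show a bound site.

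The receptor gene Ntrk3 (chr7:78175959-78738012, minus strand) had no peak within 1 kb of 11 of its 19 annotated TSSs, the outermost pair among them. An internal cluster of 7 TSSs between chr7:78577783 and chr7:78578698 had a peak in all 4 libraries at 37 °C against 0 at 39 °C. A further internal TSS, of a transcript not annotated as coding, had one in 3 and 1. The peak over the cluster, chr7:78578026-78579017, was weak, at percentile 8.71, 2.15, 7.32 and 10.0 of the 4 lists that held it. Its sequence overlaps an untranslated exon and is not printed.

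The other Ntrk3 regions were intronic, and 6 were called in all 8 libraries. The highest-ranked, chr7:78667520-78668781, had a shared percentile of 49.2, 49.6, 46.8 and 49.9 at 37 °C and 49.4, 48.1, 43.3 and 43.4 at 39 °C, which overlapped. A region 142 kb from the outer TSS was narrower at 39 °C without overlap, as were 24.1% of all shared regions. It measured 2041, 1892, 1777 and 1943 bp against 1625, 1402, 1643 and 1238 bp. A small region 35.1 kb from the outer TSS was higher in shared percentile without overlap, as were 18.5% of shared regions. It had 1.79, 3.79, 12.5 and 4.50 against 14.1, 29.8, 13.7 and 21.8.

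Ngfr, whose product p75 also marks neural crest cells, has a single TSS at chr11:95587735 on the minus strand. Its promoter region, chr11:95585087-95588895, was called in all 8 libraries with widths of 3809, 2758, 2605 and 2931 bp at 37 °C and 2476, 2685, 1951 and 1681 bp at 39 °C, which overlapped. Its shared percentile was 29.4, 35.4, 36.6 and 30.4 against 26.4, 23.8, 24.2 and 28.7. It was lower at 39 °C without overlap, as were 19.8% of all shared regions. The promoter thus remained called in the differentiated cells while the rest of the locus was rarely called. Of the Schwann and neural crest markers, the promoter of Sox10 was called in 4 undifferentiated and 3 differentiated libraries and that of Foxd3 in 3 and 0, and their part in the Ngfr values was not tested.

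Distal regions carried the difference in peak number at Ngfr. The 4 libraries at 37 °C had 8, 3, 5 and 6 distal regions and those at 39 °C had 1, 0, 1 and 0. A region 9.69 kb into the gene (chr11:95577660-95578869) was called in all 4 libraries at 37 °C and in replicates 1 and 3 at 39 °C. An intronic region 12.1 kb in (chr11:95574979-95576204) and one just past the 3′ end (chr11:95568004-95568567) were called in 4 and 0. The latter kept its 4 against 0 split when only peaks of −log10 q of at least 5 were counted, the only one of the 37 °C regions to do so, and is shown for that reason. With lists of equal length it was called in 0 libraries at either temperature.

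The window below is chr11:95568300-95568599 on the plus strand, and capitals mark a RUNX motif (TGTGGT, in 30.8% of consensus windows) and an E-box (CAGCTG, in 21% of them).

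Ngfr 3′ flank, +19.3 kb: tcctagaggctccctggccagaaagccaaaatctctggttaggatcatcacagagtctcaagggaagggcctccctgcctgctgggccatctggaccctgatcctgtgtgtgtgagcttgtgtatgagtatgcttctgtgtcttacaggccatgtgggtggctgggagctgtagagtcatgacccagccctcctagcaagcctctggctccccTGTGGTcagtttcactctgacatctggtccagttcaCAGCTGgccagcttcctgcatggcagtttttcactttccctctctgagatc

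Ret, the kinase of the GDNF receptor complex, is on the minus strand at chr6:118151745-118197718. Its promoter region chr6:118194872-118198411 held both TSSs and was called in all 8 libraries, with widths of 3517, 2458, 1783 and 2732 bp at 37 °C and 3032, 2830, 2245 and 1502 bp at 39 °C. The widths overlapped, but the shared percentile was higher at 39 °C in every library, with 51.5, 46.3, 49.1 and 48.1 against 55.7, 54.9, 57.0 and 58.7. An intronic region 17.9 kb into the gene went the same way, with 38.7, 43.1, 43.5 and 39.96 against 50.5, 48.4, 49.5 and 50.8. For both the exact permutation p was 0.0286 and the adjusted p 0.0745, and 18.5% of all shared regions were higher in this way. Within the whole lists both regions overlapped between temperatures and differed the other way, by −2.96 points at the promoter and −3.98 in the intron.

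In all 4 libraries at 37 °C and none at 39 °C a Ret region was called in intron sequence 4.15 kb from the outer TSS (chr6:118193333-118193878), with percentiles of 19.5, 26.5, 1.93 and 30.8. The highest percentile in the Ret window, 92.5 to 96.7 within the lists, belonged to the Csgalnact2 promoter and not to Ret. The intronic window chr6:118193417-118193716, plus strand, is shown as the region of the Ret locus with this split. Its capitals mark an EGR motif (GTGGGCG, in 4.37% of consensus windows) and a TEAD motif (GGAATG, here on the minus strand, in 21.9%).

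Ret intron, +4.15 kb: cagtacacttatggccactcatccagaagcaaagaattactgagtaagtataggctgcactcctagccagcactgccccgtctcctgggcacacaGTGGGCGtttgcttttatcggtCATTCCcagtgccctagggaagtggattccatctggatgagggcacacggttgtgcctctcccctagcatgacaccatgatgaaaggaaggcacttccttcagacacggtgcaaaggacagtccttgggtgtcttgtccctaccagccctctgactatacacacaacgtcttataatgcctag

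Gfra1, the co-receptor that binds GDNF, was the locus with the most regions, 18 merged and 16 in the consensus set, over chr19:58235604-58455909 on the minus strand. All 9 of its TSSs had a peak within 1 kb in all 8 libraries. The promoter region chr19:58452862-58456757 was narrower at 39 °C without overlap, as were 24.1% of all shared regions. It measured 3886, 3888, 3320 and 3655 bp at 37 °C and 3272, 3221, 3307 and 2837 bp at 39 °C. The promoter's shared percentile did not separate, with 77.7 ± 1.62 at 37 °C against 77.1 ± 1.03 at 39 °C (SD, n = 4 per group).

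Of the 9 Gfra1 regions called in all 8 libraries, 3, all intronic, had a higher shared percentile in every library at 39 °C. Of all shared regions, 18.5% did. The one 73.2 kb from the outer TSS (chr19:58382137-58383775) had 23.8, 19.7, 18.4 and 20.6 at 37 °C and 45.9, 45.0, 38.8 and 36.5 at 39 °C, a difference of 20.9 points. The one 32.9 kb in (chr19:58422286-58424210) had 59.9, 61.2, 59.0 and 61.3 against 71.8, 75.9, 75.6 and 73.3. At 18.7 kb (chr19:58435953-58438080) the difference was 3.40 points. Within the whole lists the 3 regions overlapped between temperatures, with differences of 3.13, 3.41 and, in the other direction, −1.51 points. The first of them was also wider at 39 °C, as were 0.74% of shared regions, with 1237, 1253, 1052 and 1166 bp against 1593, 1593, 1518 and 1411 bp. An intronic region 180 kb in was narrower, as were 24.1%, with 807, 692, 624 and 772 bp against 487, 509, 505 and 326 bp. Within the whole lists it and the intronic region 22.9 kb in were lower without overlap (−15.3 and −10.4 points), as were 54.4% of shared regions. The region 18.3 kb upstream of the promoter had a lower shared percentile at 39 °C, as did 19.8%, with 21.0, 24.8, 24.5 and 19.6 against 2.84, 16.7, 12.1 and 14.5.

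Gfra1 also held 2 regions called in all 4 libraries at 39 °C and none at 37 °C, and no other of the 7 loci had a region with that split. The first, chr19:58312562-58313021, lay 143 kb into the gene, with widths of 433, 402, 376 and 287 bp and percentiles of 16.5, 19.9, 20.2 and 13.5. The second lay 90.3 kb in, with widths of 539, 534, 330 and 370 bp and percentiles of 33.2, 27.2, 24.2 and 25.5. With lists of equal length the second kept its 0 against 4 split and the first was called in 0 and 2 libraries. A further region, chr19:58323357-58325610, was called in 4 libraries at 37 °C and 0 at 39 °C.

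The window of the first of these 2 regions, the one that lost its split with lists of equal length, is chr19:58312662-58312961 on the plus strand. Its capitals mark, from the left, an E-box (CACGTG, in 5.09% of consensus windows), an E-box (CAGCTG), a TEAD motif, a RUNX motif on the minus strand and a second TEAD motif.

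Gfra1 intron, +143 kb: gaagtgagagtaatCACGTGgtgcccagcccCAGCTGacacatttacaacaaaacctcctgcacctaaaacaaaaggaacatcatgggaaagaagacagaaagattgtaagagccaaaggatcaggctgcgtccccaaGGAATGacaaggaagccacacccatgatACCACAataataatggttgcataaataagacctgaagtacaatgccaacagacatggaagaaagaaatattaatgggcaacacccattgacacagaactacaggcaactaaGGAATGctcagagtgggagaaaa

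The GC content of this window was 43.7%, and the Ntrk2 window also had 43.7%. The windows of the 6 regions called in all 4 libraries at 37 °C and none at 39 °C ranged from 38% (Gfra1) to 75.3% (Ntrk3), on both sides of the median of 50% over all consensus windows.

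Over all 7 loci, 6 of 56 consensus regions (10.7%) were called in 4 libraries at 37 °C and 0 at 39 °C, and 2 (3.57%) in 0 and 4. Among all consensus regions these shares were 6.04% and 0.314%. All 8 such regions were low in the lists that held them, with percentiles from 1.93 to 33.2, and no region passed an adjusted p of 0.05 (exact Fisher test, smallest adjusted p 0.450, with 5386 regions at an unadjusted p under 0.05). With lists of equal length none of the 6 regions of 37 °C was called in any library and 1 region of the 7 loci had the split of 39 °C. The shares of all consensus regions were then 2.67% and 1.92%. Without replicate 2 at 37 °C, the regions called in the other 3 libraries and 0 at 39 °C numbered 10.

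**Figure D2:**
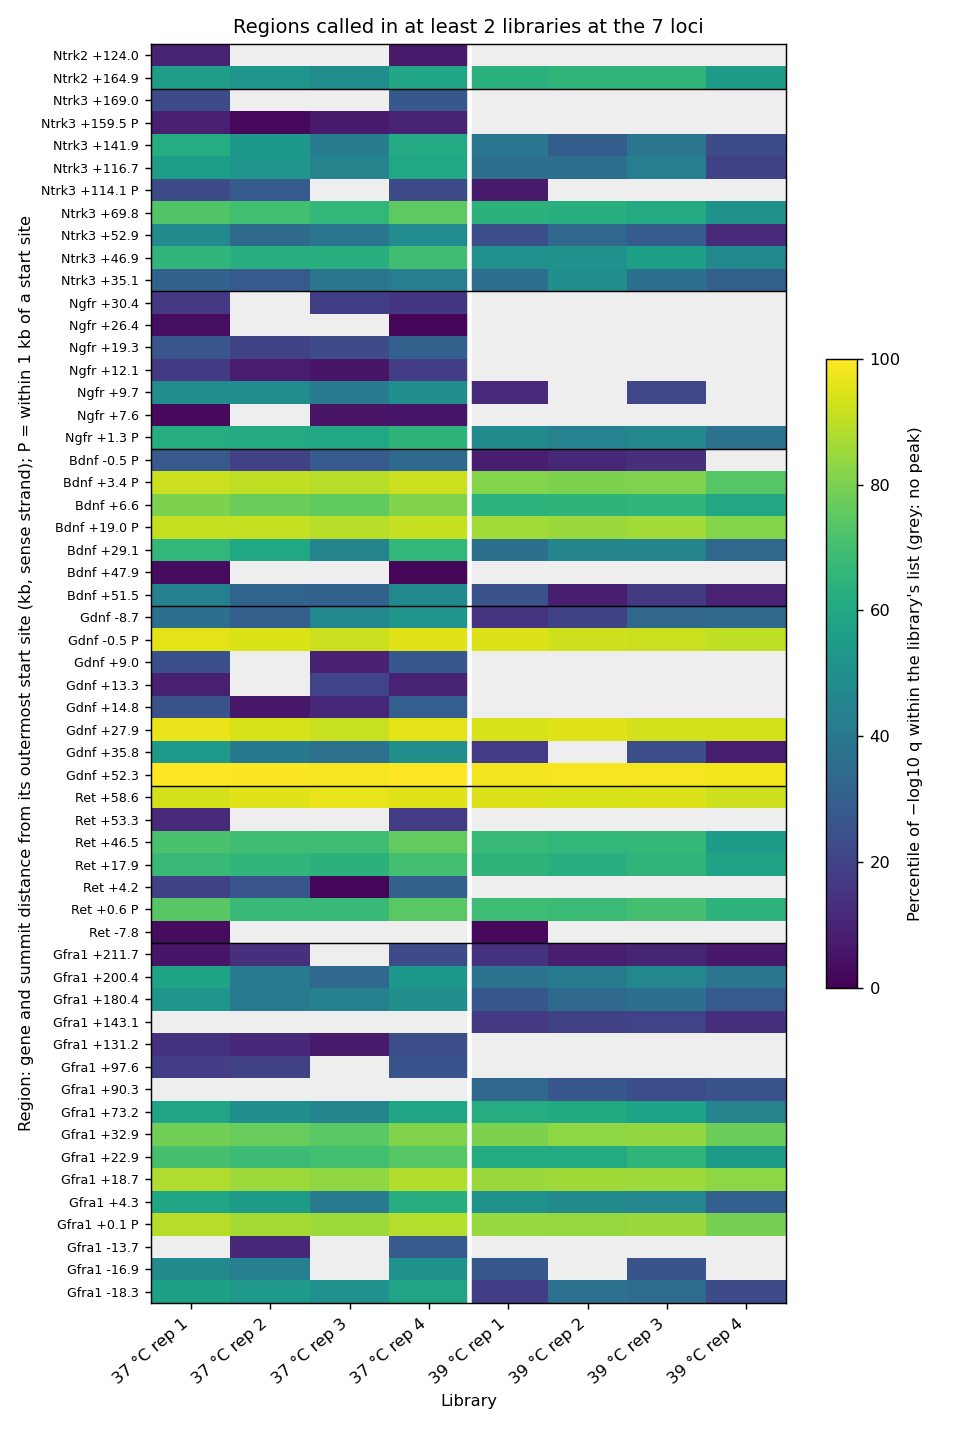
Percentile of −log10 q within each library's list (colour, 0 to 100) for the 56 consensus regions at the 7 loci, 1 row a region and 1 column a library, with grey where no peak was called. Rows give the gene and the distance of the summit from its outermost TSS in kb, and P marks regions within 1 kb of a TSS. The 2 Gfra1 rows at +143.1 and +90.3 kb are coloured only at 39 °C, and the Ngfr rows other than the promoter are mostly grey there.

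The 30 regions called in all 8 libraries were compared by rank. Within whole lists, 16 of 30 were lower at 39 °C without overlap and 0 higher, beside 54.4% and 0.814% of all shared regions, a percentile that moves with the length of the list. By shared percentile, 5 of 30 were lower (16.7%) and 7 higher (23.3%), against 19.8% and 18.5% of all shared regions. The 7 higher regions were at Gfra1 (3), Ret (2), Ntrk2 and Ntrk3, and the 5 lower ones at Bdnf (3), Ngfr and Gfra1. The median difference over the 30 was −0.616 points. No shared region passed an adjusted p of 0.05, the smallest being 0.0745, and 17210 had an unadjusted p under 0.05.

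**Figure D3:**
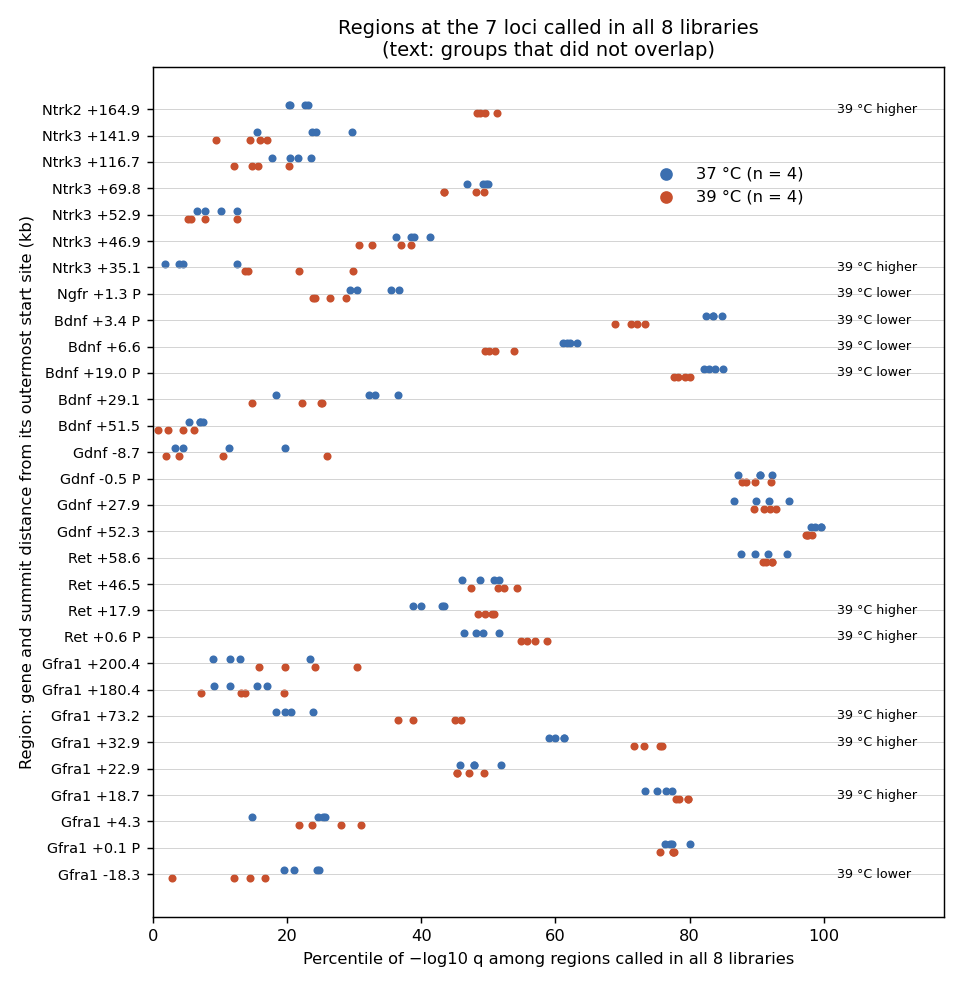
Shared percentile of −log10 q (0 to 100, x axis) for the 30 regions called in all 8 libraries, 1 point a library, blue 37 °C and orange 39 °C. The Ntrk2 region moves from 20.2–23.0 to 48.3–51.3, the Gfra1 region at +73.2 kb from 18.4–23.8 to 36.5–45.9, and the first Bdnf promoter region from 82.5–84.8 to 68.9–73.3.

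Width gave 5 narrower regions of 30 (2 at Bdnf, 2 at Gfra1, 1 at Ntrk3) and 2 wider ones (Ntrk2 and Gfra1). The wider share, 6.67%, stood beside 0.74% of all shared regions, and the narrower share of 16.7% beside 24.1%. The number of narrower regions depended on single libraries, with 14 of 30 without replicate 3 at 37 °C, 9 without replicate 1 at 39 °C and 8 without replicate 2 at 39 °C. Both wider regions were intronic and also had the 2 largest differences in shared percentile among the 30.

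**Figure D4:**
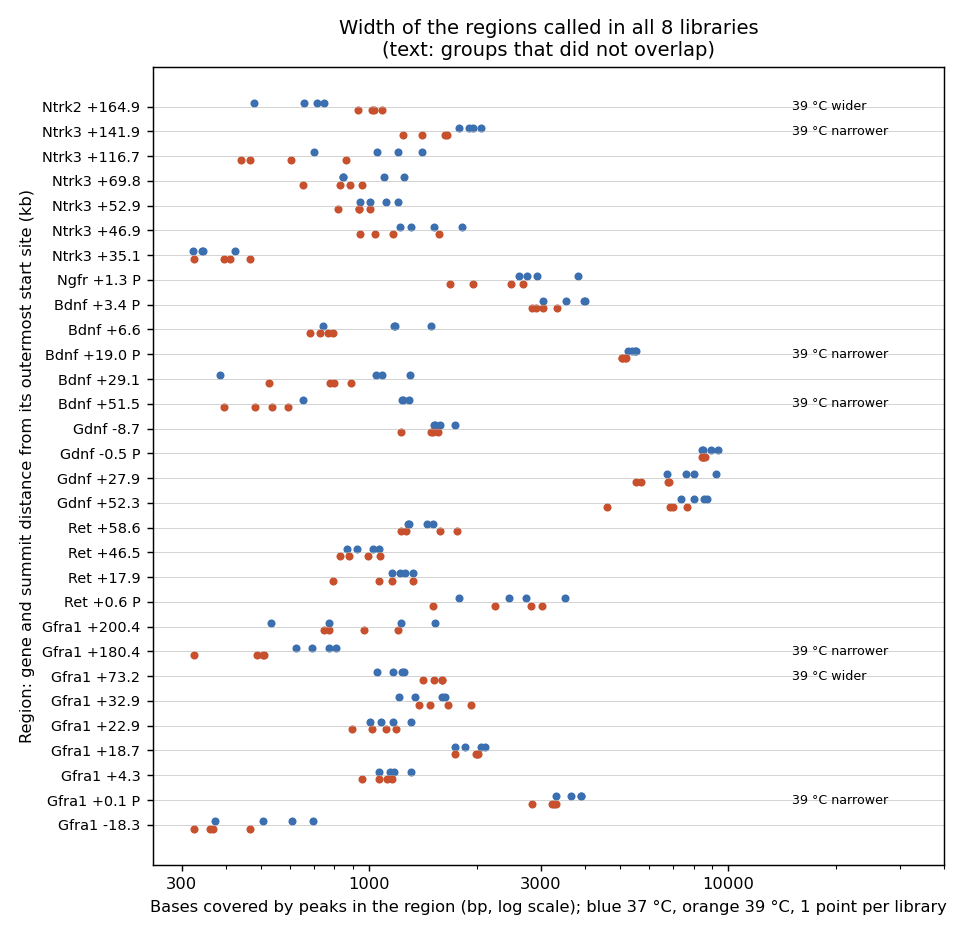
Bases covered by peaks (bp, log scale) in each of the 30 regions called in all 8 libraries, 1 point a library, blue 37 °C and orange 39 °C. The Ntrk2 region and the Gfra1 region at +73.2 kb lie to the right at 39 °C (930 to 1082 bp and 1411 to 1593 bp), and the 3 Gdnf domains reach several kb at both temperatures.

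Related ligands and receptors outside the 7 genes were read in the same way. Of 15, 9 had a promoter peak in all 8 libraries, a share near the 59.9% of all coding genes. These included the ligands Ntf5, Nrtn and Artn and Ncam1, an alternative GDNF receptor. Ntf3, the TrkC ligand, and the co-receptors Gfra2 and Gfral had none, and Gfra3, Gfra4 and Pspn had one in some. Peak number was lower at 39 °C without overlap at 4 of the 15 (Ntf5, Sorcs2, Gfra4 and Nrtn) and covered length at 6, beside 19.7% and 32.7% of coding genes, and neither was higher at any.

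Among 14 adaptors and effectors of these receptors, 13 had a promoter peak in all 8, beside 59.9% of all coding genes, and Dok5 had none. Peak number was lower without overlap at 6 of 14 and covered length at 5, beside the same 19.7% and 32.7%. Sh2b1, an adaptor of Trk receptors, had 11, 9, 8 and 10 peaks at 37 °C and 4, 4, 4 and 3 at 39 °C, and Nrtn, the neurturin ligand gene, 8, 10, 7 and 8 against 5, 4, 4 and 4. The ratio of means was 0.395 at Sh2b1 and 0.515 at Nrtn, against 0.231 at Ngfr and a median of 0.793 over coding genes with a peak at 37 °C.

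Each of the 7 genes was matched to the relative whose best promoter percentile was closest over the 8 libraries, taking 0 where no peak was called. Gdnf was closest to Nradd (mean absolute difference 1.08 points), Ngfr to Ntf5 (2.25), Bdnf to Sorcs2 (2.79), Gfra1 to Artn (4.28), Ntrk3 to Gfra4 (5.42) and Ret to Nrtn (5.42). Ntrk2 tied with Gfra2, Gfral and Ntf3, which likewise had no promoter peak. The likeness is a description over 8 libraries, and the genes share each library's list length and depth.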

How the data were processed

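Accessible chromatin was profiled by ATAC-seq in 4 SN4741 libraries at 37 °C and 4 at 39 °C. The authors aligned paired reads to mm10 with Bowtie2 (v2.4.1), sorted and removed duplicates with SAMtools (v1.15.1) and Picard (v2.26.11), and called peaks with MACS3 (v3.0.0a7) on each library separately without a control or a local background. Removal of blacklisted regions with bedtools (v2.30.0) is described in the study's methods. Per the file headers, the q-value cutoff was 0.05. Each deposited list gives for every peak a pileup signal in fragments, which is not scaled for depth, a fold enrichment, which is a ratio of pileup to a genome-wide background, and the −log10 of a p-value and a q-value. The lists hold no read counts, so no count model was possible. Positions, summits and −log10 q were used, the last as a rank within a list and, in 1 alternative, as a minimum.

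Peak lists were handled in Python (v3.11.15) with numpy (v2.4.6), pandas (v2.3.3) and pysam (v0.24.0). The functions were tested on simulated data. Loci, start sites and places came from GENCODE M21, and sequence from GRCm38.p6. Difference in group means was tested by exact permutation over libraries and calls by the exact Fisher test, both two-sided, with Benjamini-Hochberg adjustment over all 21951 coding genes, 84777 consensus regions or 44861 shared regions. The alternatives were a stricter q, lists of equal length, other windows around genes and TSSs, 50% cover of a region, the 6 libraries under 100 M fragments, a replicate block and leaving out each library. Regions described were those called at 1 temperature alone, those whose groups did not overlap in width or shared percentile, and the best promoter and distal region of each gene. Some regions whose groups did not overlap only in the percentile within whole lists are given as part of a count. The genes, the related lists and the motifs were chosen with earlier results of these data known. Some genes of the related lists and some window sequences are not reported here.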

Additional observations from a re-analysis of the deposited data

Results flagged for a closer look

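In groups of 4 libraries, 72 were examined for 1 library far from the other 3 by Dixon's criterion, and 8 were found where chance gives about 1 in 20, or 3.6. Counts of small whole numbers pass easily, since 1 differing library takes the whole range. Such were replicate 2 at 39 °C with 2 peaks at Ntrk2 against 1 in the others, replicate 1 at 39 °C with 7 peaks at Ntrk3 against 6, and replicate 4 at 39 °C with 5 peaks at Bdnf against 6. Replicate 4 at 39 °C, the library with the shortest list, also had the lowest within-list percentile at the intronic Ntrk2 region (55.44), at the Ret region 46.5 kb from the outer TSS (54.72) and at the Gfra1 promoter (79.4), and the narrowest Gfra1 region 18.7 kb from the outer TSS (1733 bp). At 37 °C, replicate 3, the library with the fewest fragments kept, had the lowest percentile at the second Bdnf promoter region (89.44). The part of list length and depth in these values was not tested.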

How the results depend on the processing

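Of 112 counts over the 7 genes under alternative settings, 92 stayed within 1.5 times the value in the report, and of 328 values for single loci or regions 277 kept their direction and side of the threshold, 14 lost and 18 gained separated groups, 2 became 0 and 17 changed sign. The count of loci with fewer peaks at 39 °C (3) became 1 with −log10 q of at least 5, 0 with equal lists and 1 with 50 kb flanks. Regions called only at 37 °C (6) became 1 with the stricter q and 0 with equal lists, and those only at 39 °C (2) became 1 with equal lists. Regions lower in percentile (16) became 6 with equal lists and 5 by shared percentile, and those higher (0) became 6, 7 and, in libraries under 100 M fragments, 2. The region downstream of Ret 46.5 kb from the TSS reversed, from −7.51 points to 0.991 with equal lists and 2.09 by shared percentile. The Ret promoter (−2.96, groups overlapping) became 6.05 and 7.81 and the Gfra1 region at 18.7 kb (−1.51, overlapping) 2.67 and 3.40, all 4 without overlap, and in libraries under 100 M fragments they were 0.229 and 0.378. The other sign changes were in loci whose groups overlapped in the report. With equal lists the difference in peaks became 1.5 at Gfra1, without overlap, 0.25 at Ntrk2 and 0.5 at Ntrk3. In libraries under 100 M fragments it became 0.25 at Ntrk2 and 0.5 at Gfra1, and that in covered length 131.8 bp at Ret and 243.8 bp at Gfra1. At Gfra1 the difference in peaks was 0.25 with the stricter q and ranged from −1.83 to 0.167 when 1 library was left out, the last without 37 °C replicate 4. Leaving out 1 library gave 3 to 5 loci with fewer peaks and 2 to 5 with less covered length (5 without 37 °C replicate 3), 6 to 10 regions called only at 37 °C (10 without 37 °C replicate 2), 5 to 14 narrower regions (14 without 37 °C replicate 3) and 0 to 1 region of higher percentile (1 without 39 °C replicate 4). Fewer libraries make separation easier, and 3 against 4 can give no p below 0.0571. The replicate numbers do not show pairing, since 1 of 4 same-number correlations of deviations was above 0.1 (lowest −0.473) and 1 of 4 libraries at 37 °C was closest to its own number. With a replicate block, counting loci and regions lower in all 4 pairs, 4 loci had less covered length (2 without) and 11 regions were narrower (5 without), the smallest p being 0.125. The cause of these shifts was not tested. Peak lists without counts limit what depth allows: a region without a call is not shown to be closed.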
